A study of Fukomys damarensis and Heterocephalus glaber and Mus musculus with 160 samples.

Results

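H3K4me1, histone H3 carrying a single methyl group on lysine 4, was mapped by chromatin immunoprecipitation and sequencing (ChIP-seq) in liver and heart of the naked mole-rat (Heterocephalus glaber), a long-lived subterranean African rodent. The 8 libraries described here were those whose titles named this species, this mark and either tissue: 5 livers and 3 hearts, out of 160 samples in the series, 116 of which had a peak list. All animals were wild-type adult males with no treatment. The livers came from NMR30 (13 months), NMR31 (14 months), NMR32 (17 months), NMR34 (17 months) and NMR35 (15 months), and the hearts came from the same NMR30, NMR31 and NMR32. The liver was flushed with buffer before dicing and clots were taken out of the heart ventricles, so blood cells were removed differently in the tissues. Whole tissue was used, so fewer cells carrying the mark and a weaker mark in each cell cannot be told apart.

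H3K4me1 is laid down mainly at enhancers, the stretches of DNA that raise transcription of a gene from a distance, and also on the flanks of promoters. Enhancers that are in use usually carry H3K27ac, acetylation of lysine 27 of the same histone, as well, while H3K4me1 without H3K27ac is often described as a primed state. Trimethylation of lysine 4, H3K4me3, marks promoters and usually replaces H3K4me1 where transcription starts. Enhancer marks differ more between tissues than promoter marks do, since each cell type uses its own set of enhancers.

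Each list gives, for every peak, its start and end on the HetGla_1.0 assembly, its fold (the linear enrichment over background that the peak caller reported) and a −log10 p-value and −log10 q-value. Read depth is unknown, and list length varied: liver lists held 132759 to 180145 peaks and heart lists held 42957 to 110851. Comparisons were therefore repeated with the 20000 peaks of highest −log10 p-value in each list. No gene annotation of this assembly was used here, so regions are given by position only and the tissues could not be checked against marker genes.

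A pair of libraries stood apart. The liver NMR30 list had 32.9% of its peaks at its shortest width of 294 bases, against 9.02% to 11.3% at the shortest width in the other 4 livers, and its strongest peaks overlapped those of other livers least. The heart NMR32 list was the shortest, with 88 peaks of at least 2000 bases, against 538 in heart NMR31 and 2284 in heart NMR30. The shortest width also differed between lists, 214 to 294 bases in liver and 293 to 296 bases in heart.

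With equal numbers of peaks, liver H3K4me1 peaks were both wider and higher than those of heart. The median width of the top 20000 peaks was 953 bases in liver NMR30, 1003 in NMR31, 1386 in NMR32, 1157 in NMR34 and 1136 in NMR35. In heart it was 871 bases in NMR30, 607 in NMR31 and 451 in NMR32. Every liver value lay above every heart value, with NMR30 the closest pair. The means were 1127 ± 169 (SD, n = 5) and 643 ± 212 (SD, n = 3), a log2 difference of 0.85 (two-sided exact permutation p = 0.0179, the smallest that 5 against 3 libraries allow, and 0.0214 after Benjamini-Hochberg adjustment over 6 list measures). Within the 3 animals with both tissues the log2 difference was 0.13 in NMR30, 0.72 in NMR31 and 1.62 in NMR32. The size of the difference thus varied widely between animals, and without heart NMR32 the log2 difference was 0.62 (adjusted exact p = 0.0571, from an unadjusted 0.0476, the smallest that 5 against 2 libraries allow).

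The median fold of the same top 20000 peaks separated the tissues more evenly. It was 10.4, 9.01, 10.1, 10.5 and 10.7 in liver NMR30, NMR31, NMR32, NMR34 and NMR35, and 6.14, 5.98 and 5.65 in heart NMR30, NMR31 and NMR32. The lowest liver stood well above the highest heart, and the means of 10.1 ± 0.66 (SD, n = 5) and 5.92 ± 0.253 (SD, n = 3) differed by 0.77 on the log2 scale (exact permutation p = 0.0179, adjusted 0.0214). In NMR30, NMR31 and NMR32 the log2 difference was 0.76, 0.59 and 0.84. With animal as a block the mean log2 difference was 0.82 for top-peak width and 0.73 for top-peak fold (adjusted exact sign-flip p = 0.3 for both, as 3 pairs allow no p below 0.25 before adjustment). The highest fold of any peak was 27.1 to 37.1 in liver lists and 13.3 to 15.9 in heart lists. Width and fold went together more closely across peaks in liver, with a Spearman rho of 0.60 to 0.70, than in heart, with 0.40 to 0.50, as a description over peaks of a list that share one library. Fold is each list's own ratio, and a library with less enrichment or depth gives lower folds at any number of peaks. Their part in the difference was not tested.

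Taken over whole lists, the median width did not separate the tissues. It was 402 to 552 bases in liver and 384 to 449 bases in heart, with means of 446.6 ± 60.9 (SD, n = 5) and 422.7 ± 34.2 (SD, n = 3), and the groups overlapped (log2 difference 0.07, exact permutation p = 0.661). Liver NMR32 held the highest value, and without it the log2 difference was -0.0060. The median fold of whole lists was 5.12 to 5.32 in liver and 4.201 to 4.73 in heart, without overlap (log2 difference 0.19, exact permutation, adjusted p = 0.0214). Among peaks with a −log10 q-value of at least 4 that difference was 0.12 and the call was lost (adjusted exact p = 0.214). Peaks of 2000 bases or more made up 1.68% to 5.17% of liver lists and 0.205% to 2.06% of heart lists. Liver lists covered 80.8 to 106.6 Mb and heart lists covered 34.6 Mb in NMR31, 19.9 Mb in NMR32 and 67.0 Mb in NMR30. Library codes in the titles begin with do or vl, without a stated meaning, and when libraries were compared only within a code the log2 difference was 0.69 for top-peak width and 0.75 for top-peak fold (adjusted exact permutation p = 0.05 for both).

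**Figure D1:**
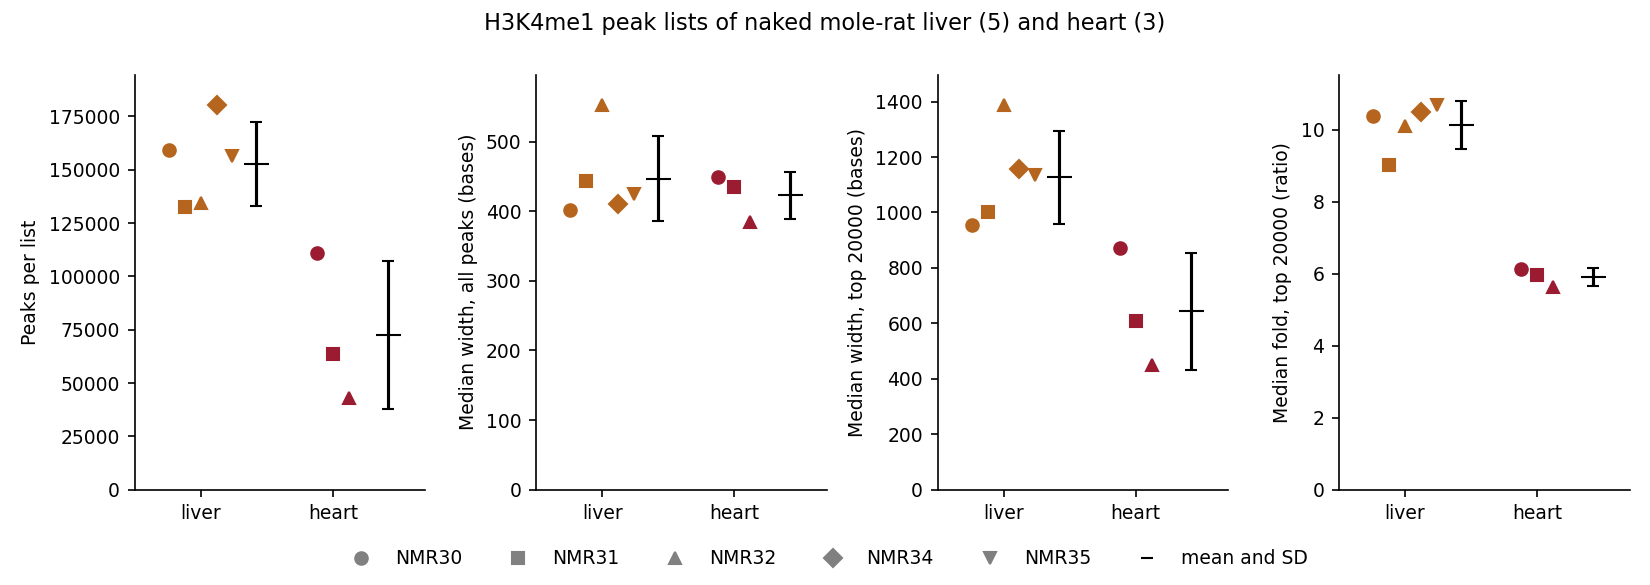
Peaks per list, median width of all peaks and of the top 20000 peaks in bases, and median fold of the top 20000 peaks, for 5 liver and 3 heart H3K4me1 libraries (1 symbol per animal, mean and SD in black). The tissues do not overlap in top-peak width, where liver ranged from 953 to 1386 bases and heart from 451 to 871, or in top-peak fold, but they overlap in the median width of all peaks.

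The positions of the strongest peaks were shared within a tissue and not within an animal. The Jaccard index (bases in both lists of a pair over bases in either) averaged 0.347 over 10 liver pairs (0.281 to 0.419) and 0.174 over 3 heart pairs (0.148 to 0.215) for the top 20000 peaks. Over the 15 pairs of a liver with a heart it averaged 0.0844 and reached at most 0.122. The lowest heart pair was thus still above the highest pair across tissues, and the mean within tissues exceeded that between tissues by 0.222 (one-sided exact permutation p = 0.0179). Liver and heart of the same animal shared no more bases than those of different animals, with means of 0.0792 over 3 pairs and 0.0857 over 12 pairs. When tissues were exchanged only within those 3 animals, the exact p was 0.125, the smallest possible. Liver NMR30 paired with the other 4 livers at 0.281 to 0.289, below all 6 other liver pairs, and without it the separation was 0.228 (exact permutation p = 0.0286). Without heart NMR32 it was 0.239 (exact permutation p = 0.0476, the smallest that 5 against 2 libraries allow).

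**Figure D2:**
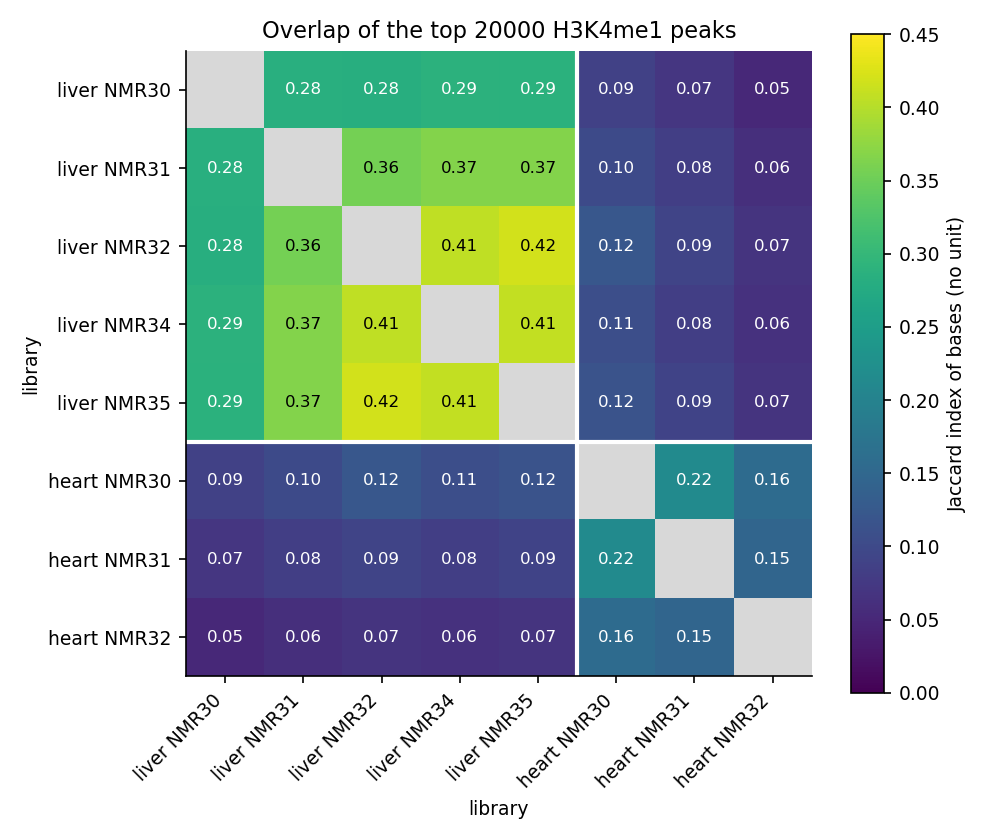
Jaccard index of bases (no unit, colour and printed value) for each pair of the 8 libraries, using the top 20000 H3K4me1 peaks of each, with white lines between liver and heart. The block of liver pairs runs from 0.281 to 0.419, the heart block from 0.148 to 0.215, and the pairs across tissues stay at or below 0.122.

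Looking for a library's strongest peaks in the whole lists of other libraries gave a different picture for each direction. Of the top 20000 liver peaks, 95.2% (NMR30) to 97.99% (NMR32) were found on average in another liver list, and 32.2% (NMR30) to 40.8% (NMR32) in a heart list. Of the top 20000 heart peaks, 59.5% in NMR30, 65.7% in NMR31 and 66.7% in NMR32 were found on average in another heart list. The same heart peaks were found in a liver list on average in 59.5%, 56.6% and 50.7% of cases. For heart NMR30, a liver list thus held as many of its strongest peaks as another heart list did. Whole liver lists are longer than whole heart lists, and the share found moves with list length. Between 48.7% and 58.3% of the top liver peaks had a peak in at least 1 heart list, and 68.1% to 76.7% of the top heart peaks in at least 1 liver list.

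Merging all peaks of the 8 lists gave 273252 regions, of which 127825 (46.8%) came from 1 list. A region found in at least 2 liver lists and no heart list is called liver-only, one in at least 2 heart lists and no liver list heart-only, and one in at least 2 lists of each two-tissue. There were 78267 liver-only, 13426 heart-only and 23742 two-tissue regions, and two-tissue regions made up 23.3% of the regions of liver and 63.9% of those of heart. Without liver NMR30 the 3 counts were 73438, 14630 and 22978, and without heart NMR32, which leaves 2 hearts, 80349, 9465 and 19355.

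The excess of liver-only regions shrank when the tissues were put on equal terms. With the top 20000 peaks of each list the counts were 14284 liver-only, 6222 heart-only and 4157 two-tissue. With the top 20000 peaks and the 3 animals that gave both tissues they were 9195, 6684 and 3289. Two-tissue regions were then 26.3% of liver and 33.0% of heart regions, so the difference between the shares of the tissues was far smaller than in the whole lists. Liver-only regions outnumbered heart-only regions 5.83 to 1 in the whole lists and 1.38 to 1 on these equal terms.

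The core found in all 8 lists was small against the 273252 merged regions, but larger than the set in all 3 hearts and no liver. It could not exceed the 42957 peaks of the shortest list, heart NMR32. A peak was present in all 5 livers and no heart at 27001 regions, in all 3 hearts and no liver at 3059, and in all 8 lists at 8051. Liver-only regions had a median width of 778 bases, heart-only regions 733 and two-tissue regions 1870. That of two-tissue regions is partly built in, since these merge peaks of at least 4 lists. They lay in different surroundings: the region next along a scaffold belonged to the same class for 81.9% of liver-only regions (67.8% of all such regions), for 48.9% of heart-only regions (11.6% of all) and for 44.7% of two-tissue regions (20.6% of all). Heart-only regions therefore had a heart-only neighbour more often than their share of the regions, as a description without a test. On the 33 scaffolds with at least 200 one-tissue regions, heart-only regions made up 3.29% (JH169122.1, 7 heart-only and 206 liver-only) to 41.0% (JH166717.1, 91 and 131) of them, with a median of 16.1%.

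Whether regions of both tissues carried stronger peaks was measured in libraries that had no part in defining them. For each animal the classes were rebuilt from the other animals alone, and the fold rank of its peaks, as a percentile within their own list, was compared between two-tissue regions and regions of its own tissue only. In liver, peaks in two-tissue regions ranked higher by 8.21 (NMR30), 11.1 (NMR31), 11.8 (NMR32), 8.80 (NMR34) and 10.0 (NMR35) percentile points. In heart the difference was 1.68 (NMR30), 7.23 (NMR31) and 5.78 (NMR32) points. All 8 libraries were above 0, and the mean over 5 animals was 8.34 ± 1.96 points (SD, n = 5), with an exact sign-flip p of 0.0625, the smallest that 5 animals allow. Width behaved alike in liver, where the log2 difference was 0.37 ± 0.059 (SD, n = 5), and less in heart, with 0.07 ± 0.0386 (SD, n = 3).

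The gap between tissues in the fold rank depended on how the classes were set. It was 5.09 points larger in liver than in heart (exact permutation p = 0.0179), but a liver-only region then needed 2 of the 4 other livers and a heart-only region both other hearts. With both kinds of region required in every other list of the tissue, a choice made after seeing the data, the differences were 6.95 ± 1.66 points (SD, n = 5) in liver and 4.90 ± 2.88 points (SD, n = 3) in heart, and the liver and heart values overlapped (difference 2.05 points, exact permutation p = 0.232). For width the liver difference stayed above the heart difference by 0.21 on the log2 scale (exact permutation p = 0.0179). With the top 20000 peaks of each list the heart rank differences were -0.71, 2.11 and 0 points in NMR30, NMR31 and NMR32, while the liver differences remained 8.17 to 12.8 points. In heart, then, higher rank at two-tissue regions was not seen among the strongest peaks.

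The shares given next also use classes rebuilt without the animal that was measured. For NMR30, NMR31 and NMR32 a two-tissue region then needed both remaining hearts, while for NMR34 and NMR35 no heart was left out. Two-tissue regions were over-represented at the top of every list. They held 12.6% (NMR30) to 26.0% (NMR35) of all peaks of a liver list, 27.2% to 46.6% of the 10% with the highest fold and 5.23% to 22.3% of the 10% with the lowest. In heart they held 18.6% of all peaks in NMR30, 31.8% in NMR31 and 40.8% in NMR32, and 42.3%, 58.8% and 62.9% of the 10% with the highest fold. Liver-only regions showed no such excess in 4 of 5 livers, holding 42.1% to 48.9% of all peaks and 38.0% to 40.5% of those with the highest fold in NMR31, NMR32, NMR34 and NMR35. In liver NMR30 the shares were 46.2% and 53.2%. Heart-only regions held 3.89%, 6.26% and 9.32% of all peaks and 7.46%, 7.78% and 10.5% of those with the highest fold. These shares are descriptions without a test. A held-out library recovered 83.8% to 91.0% of the two-tissue regions and 63.5% to 81.6% of the liver-only regions in liver. That gap is partly built in, since two-tissue regions needed at least 4 lists and liver-only regions at least 2. With regions required in every other list of the tissue, liver recovery was 92.9% to 98.5% and 86.2% to 97.0%. In heart, recovery of two-tissue regions was 92.7% in NMR30, 76.0% in NMR31 and 56.8% in NMR32, and recovery of heart-only regions was 76.9%, 52.5% and 35.1%. As the background, held-out regions of only the other tissue were hit in 3.15% to 8.16% of cases by liver lists and in 2.60% to 16.0% by heart lists.

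H3K27ac, which had no part in choosing the regions, followed the tissue of the H3K4me1 class. The liver H3K27ac lists marked 35.8% (NMR30), 41.6% (NMR31), 37.9% (NMR32), 33.8% (NMR34) and 43.4% (NMR35) of liver-only regions, and the heart H3K27ac lists marked 10.4% (NMR31), 11.1% (NMR32) and 12.6% (NMR35). The means of 38.5% ± 3.98 (SD, n = 5) and 11.4% ± 1.13 (SD, n = 3) did not overlap and differed by 27.1 points (exact permutation, adjusted p = 0.0357). At heart-only regions the order was turned around, with 4.60% ± 1.65 (SD, n = 5; 2.54% to 6.68%) in liver and 51.8% ± 1.22 (SD, n = 3; 50.7% to 53.1%) in heart, a difference of -47.2 points (exact permutation, adjusted p = 0.0357). In NMR31, NMR32 and NMR35, the animals with H3K27ac lists of both tissues, the mean differences were 29.6 and -46.2 points (adjusted exact sign-flip p = 0.3 for both, over 3 pairs). At two-tissue regions liver lists marked 64.0% ± 5.45 (SD, n = 5) and heart lists 71.6% ± 1.86 (SD, n = 3). Those groups overlapped, with liver NMR35 at 72.4% (difference -7.57 points, exact permutation, adjusted p = 0.134). With equal numbers of H3K27ac peaks per list the difference there was -8.23 points (adjusted p = 0.0268).

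Many one-tissue regions had no H3K27ac in either tissue, counting a mark as present when found in at least 2 lists: 53.6% of liver-only, 47.8% of heart-only and 17.2% of two-tissue regions. Of the two-tissue regions, 56.8% carried H3K27ac in both tissues, 11.95% (2838 regions) in liver alone and 14.0% (3330 regions) in heart alone. H3K4me1 was therefore present in both tissues at 6168 regions where H3K27ac was found in 1 of them. Wider regions carried H3K27ac more often. Among regions of 500 to 1000 bases 37.6% of liver-only regions had it in liver, and among those of 2000 to 4000 bases 82.9% did. For heart-only regions the heart shares were 47.7% and 84.8% in those width ranges. Between these equal-width groups, two-tissue regions of 500 to 1000 bases had liver H3K27ac at 51.9%, above the 37.6% of liver-only regions, and those of 2000 to 4000 bases at 74.8%, below the 82.9%.

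H3K4me1 peaks that coincided with H3K27ac of their tissue ranked higher by fold in all 8 lists. In liver-only regions the median rank was 14.1 to 17.5 percentile points higher with H3K27ac than without, and in heart-only regions 3.65 (NMR32) to 9.35 (NMR30) points higher. In two-tissue regions the gap was 17.2 to 21.7 points in liver lists and 10.2 to 12.3 points in heart lists. The largest gaps were thus in two-tissue regions of liver. Peaks with H3K27ac also had a larger median width in every list and class. It was 837 against 536 bases in two-tissue regions of liver NMR32 and 398 against 361 in heart-only regions of heart NMR32. The part of width in the rank gaps was not tested.

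Promoter marking separated two-tissue from one-tissue regions. H3K4me3 in at least 3 lists of a tissue overlapped 36.3% of two-tissue, 12.4% of liver-only and 2.05% of heart-only regions. The median distance to the nearest such H3K4me3 region was 5358.5 bases from two-tissue, 20618 from liver-only and 31918 from heart-only regions. This held at equal width, since among regions of 500 to 1000 bases 41.4% of two-tissue, 13.3% of liver-only and 2.07% of heart-only regions overlapped H3K4me3. By library, liver H3K4me3 lists marked 13.1% ± 3.26 (SD, n = 5; 10.4% to 18.8%) and heart lists 7.63% ± 2.24 (SD, n = 4; 4.65% to 9.49%) of liver-only regions, a difference of 5.49 points without overlap (exact permutation, adjusted p = 0.0357). With equal numbers of H3K4me3 peaks per list it was 2.34 points (adjusted p = 0.2), and the call was lost. At heart-only regions the liver shares were 12.5% in NMR30 and 0.76% to 1.48% in the other 4, and the heart shares were 1.35% to 3.08%. There were 253457 peaks in the liver NMR30 H3K4me3 list and 27591 to 48726 in those of the other livers, and without it the difference in means turned from 1.04 to -1.24 points. With equal numbers of H3K4me3 peaks per list the difference at heart-only regions was -0.84 points, a call towards heart (exact permutation, adjusted p = 0.0268). At two-tissue regions the shares of 37.3% ± 4.49 (SD, n = 5) in liver and 30.5% ± 7.55 (SD, n = 4) in heart overlapped.

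**Figure D3:**
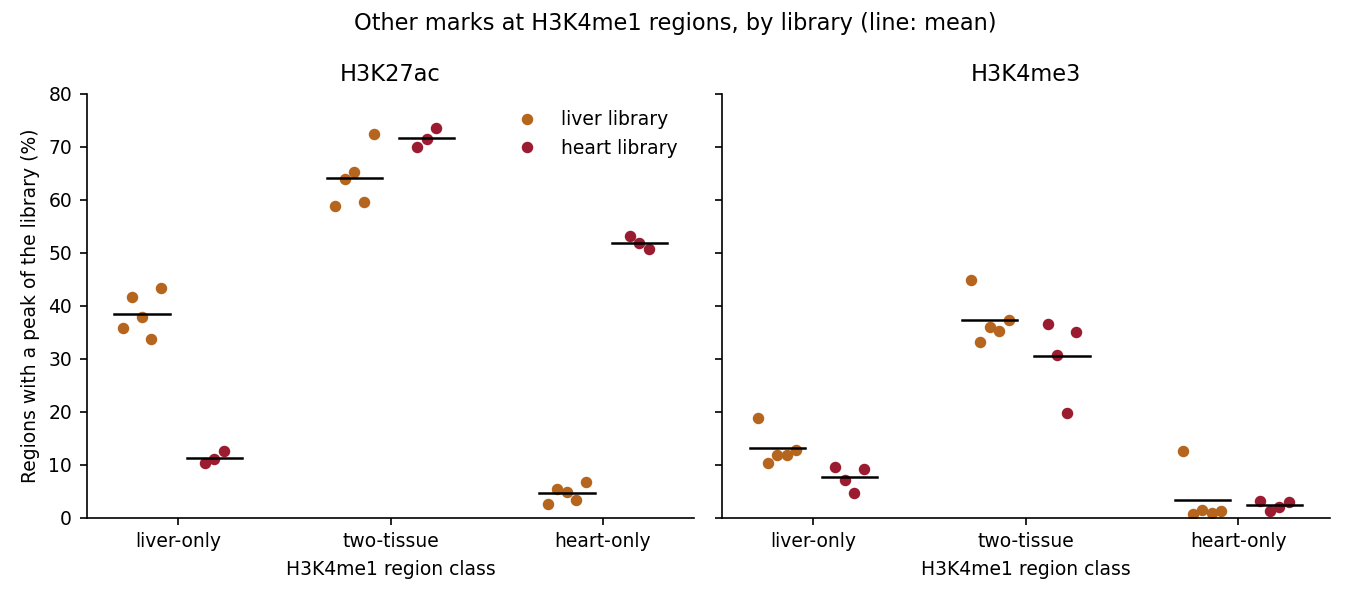
Share of H3K4me1 regions (percent) with an H3K27ac or H3K4me3 peak of each library, by region class (1 point per library, line at the mean). Liver H3K27ac libraries lie above heart at liver-only regions (38.5% and 11.4% on average) and below at heart-only regions (4.60% and 51.8%), and a liver H3K4me3 library, NMR30, stands apart at 12.5% of heart-only regions.

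H3K4me1 was lower at the middle of promoters than on their flanks in both tissues. Over 17369 H3K4me3 regions with a peak in at least 3 liver and 3 heart H3K4me3 lists, H3K4me1 peaks covered the middle of 14.9% (NMR30), 19.3% (NMR31), 27.6% (NMR32), 28.6% (NMR34) and 23.2% (NMR35) of regions in liver. Averaged over both sides, coverage was highest 700 bases away, at 21.5%, 23.9%, 30.2%, 31.3% and 26.6%. In heart it was 11.99% (NMR30), 6.35% (NMR31) and 3.97% (NMR32) at the middle, and at its highest, 800 bases away, 18.3%, 10.2% and 5.84%. The middle thus held 0.69 to 0.92 of the highest coverage in liver and 0.62 to 0.68 in heart, with liver NMR30 nearest to the hearts. In liver NMR31, NMR32, NMR34 and NMR35 the lowest value between the shoulders lay 200 bases to one side of the middle. It was 19.0%, 26.4%, 27.7% and 22.1% there, while in liver NMR30 and the hearts the lowest value lay at the middle. At 5000 bases coverage was 9.50% to 12.3% in liver and 2.51% to 7.42% in heart. Wider liver peaks reach further towards the middle, and their part in the shallower dip was not tested.

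**Figure D4:**
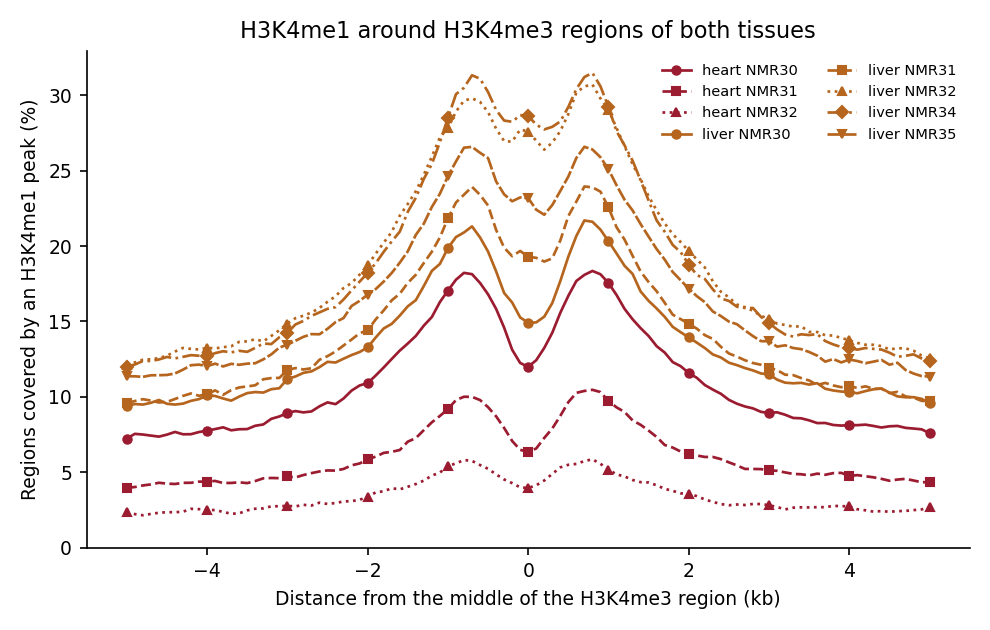
Percent of 17369 H3K4me3 regions covered by an H3K4me1 peak against distance from the middle of the region in kb, 1 line per library. All 8 lines have a shoulder on each side and a lower value at the middle, which is 0.69 to 0.92 of the highest value in liver and 0.62 to 0.68 in heart.

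Liver transcription factors gave a check of the liver label. CEBPA, FOXA1, HNF4A and RXRA are factors that bind liver enhancers and control hepatic metabolism, and each had a liver list from NMR30 and NMR35. In all 8 factor lists, liver-only regions were hit more often than heart-only ones. CEBPA peaks lay in 32.0% (NMR30) and 26.0% (NMR35) of liver-only regions and in 5.30% and 3.53% of heart-only regions. FOXA1 peaks, from a factor that opens closed chromatin, lay in 10.1% and 17.8% of liver-only and in 3.05% and 1.21% of heart-only regions. RXRA peaks, from the shared partner of many nuclear receptors, lay in 7.74% and 14.0% against 0.894% and 2.69%. HNF4A showed the smallest contrast, with 2.77% and 10.3% against 2.12% and 4.31%. The ratio of the shares ranged from 1.31 (HNF4A in NMR30) to 14.7 (FOXA1 in NMR35), and with 2 animals no test was made.

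Between liver-only and two-tissue regions the order depended on the regions compared. Among regions of 500 to 1000 bases the share was larger at liver-only regions in 7 of 8 lists. CEBPA peaks lay in 27.6% (NMR30) and 22.1% (NMR35) of liver-only regions of that width and in 13.6% and 10.1% of two-tissue regions, and FOXA1 peaks in NMR35 in 14.4% and 3.18%. The exception was RXRA in NMR35, with 10.1% and 11.7%. Over regions of all widths, where two-tissue regions are wider, the share was larger at two-tissue regions in 7 of 8 lists, for example 26.5% against 14.0% for RXRA in NMR35. Among regions found in every list it was larger at two-tissue regions in 5 of 8: CEBPA in NMR30 lay in 50.0% of regions of all 5 livers and no heart and in 46.8% of those in all 8 lists, while RXRA in NMR35 lay in 25.5% and 40.1%.

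At the 8051 regions with a peak in all 8 lists, the tissues could be compared by the order of fold alone. The fold of each region was ranked within each list and the ranks, as normal scores, were compared between liver and heart with limma. At an adjusted p under 0.05, 206 regions ranked higher in liver (2.56% of those tested) and 349 ranked higher in heart (4.33%). The ranks of the tissues did not overlap at 7.24% of regions with liver above and at 8.11% with heart above. With animal as a block the counts were 46 and 104, without liver NMR30 162 and 275, and without heart NMR32 160 and 260. With the mean fold of a list's peaks in place of the highest they were 78 and 149. The mean ranks of the tissues had a Spearman rho of 0.293 across regions, a description over regions that share the same libraries.

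**Figure D5:**
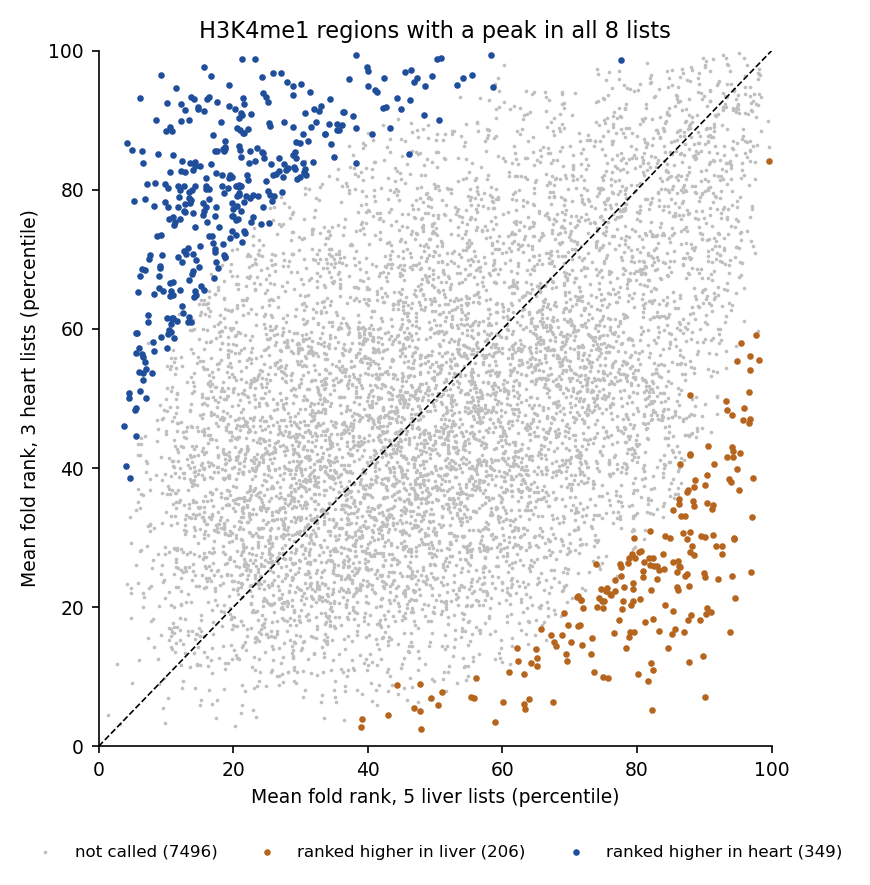
Mean fold rank (percentile among the 8051 regions found in all 8 lists) in 5 liver lists against 3 heart lists, 1 point per region, with the dashed line at equal rank. The 206 regions ranked higher in liver lie at the lower right and the 349 ranked higher in heart at the upper left, while many regions in between differ in rank without passing the test.

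The other mark moved with the rank of H3K4me1. H3K27ac was present in all 5 liver lists at 89.3% of regions ranked higher in liver, at 45.3% of those ranked higher in heart and at 66.2% of the 8051. It was present in all 3 heart lists at 58.7%, 92.3% and 75.4% of them. The H3K27ac rank of liver minus heart had a median of 22.6 percentile points in the regions ranked higher in liver, where it was above 0 at 171 of 206. In the regions ranked higher in heart the median was -25.4, and it was above 0 at 58 of 349. Over all 8051 regions the median was -0.68 and 3803 were above 0. Peaks of at least 4 of the 8 factor lists lay in 63.1% of regions ranked higher in liver, in 5.44% of those ranked higher in heart and in 27.3% of all. H3K4me3 in at least 3 liver lists was found at 35.4%, 12.03% and 40.6%, so regions ranked higher in heart had the lowest share. The median width was 4335.5 bases in regions ranked higher in liver, 3445 in those ranked higher in heart and 3068 in all. The part of width in these shares was not tested.

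The regions named next were the 8 highest of each kind by the rules given with the processing. The values of the liver-only and heart-only ones describe the choice and are not tested. The leading liver-only region, JH172074.1:631549-633092 (1544 bases), had a fold of 23.96 in NMR30, 16.4 in NMR31, 15.6 in NMR32, 16.8 in NMR34 and 34.96 in NMR35 (21.5 ± 8.22, SD, n = 5). It had H3K27ac in all 5 livers and 1 heart, no H3K4me3 and 6 factor lists that included all 4 factors. NMR35 was the highest library there and NMR32 the lowest. JH169639.1:224938-229918 (16.9 ± 1.35, SD, n = 5) had the promoter mark H3K4me3 in 5 liver lists and 1 heart list, while the other 7 had it in at most 2 liver lists. JH167707.1:51283-57460, the widest of them at 6178 bases, had folds of 14.1 to 24.4 and peaks of all 4 factors.

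All 8 liver-only regions had H3K27ac in all 5 livers, and 6 of 8 had it in no heart. JH166963.1:425455-426974 (fold 16.5 ± 1.62, SD, n = 5) differed from them: it had no H3K4me1 peak in any heart but H3K27ac and H3K4me3 in 3 heart lists each. Its H3K4me3 was found in no liver list. All 8 held peaks of 2 to 6 factor lists. Single factor lists had a peak in 4.63% (HNF4A in NMR30) to 50.0% (CEBPA in NMR30) of all regions in 5 livers and no heart. The share of those regions with peaks of at least 2 factor lists was not counted. Over all liver-only regions, H3K27ac was in at least 2 liver lists at 44.0% and in at least 2 heart lists at 11.1%. Lack of heart H3K27ac was thus usual for the class. The 8 came from the stricter set in all 5 livers and no heart and were counted at all 5 liver lists. These shares are therefore not their exact background. In the stricter set the mean H3K27ac share was 52.1 points higher in liver than in heart lists, against 27.1 over all liver-only regions. The 8 were chosen by fold rank, which was higher at H3K4me1 peaks with H3K27ac in every list.

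Heart-only regions had lower folds. JH166717.1:745848-748557 (2710 bases) had 10.99 in NMR30, 8.12 in NMR31 and 9.80 in NMR32 (9.64 ± 1.44, SD, n = 3), with H3K27ac in all 3 hearts and 1 liver. It lies on the scaffold with the highest share of heart-only regions. JH173963.1:142816-149534, the widest at 6719 bases, had 8.35, 8.22 and 8.93 (8.50 ± 0.375, SD, n = 3), and JH170644.1:1235235-1238909 had 10.4, 9.11 and 7.45 (9.001 ± 1.501, SD, n = 3). Both had H3K27ac in 3 hearts and no liver. All 8 regions had H3K27ac in all 3 hearts, 5 of 8 had it in no liver, and 5 of 8 held no peak of a liver factor. Over all heart-only regions, H3K27ac was in at least 2 heart lists at 51.4% and in at least 2 liver lists at 4.88%. Single factor lists had a peak in 1.18% (RXRA in NMR30) to 7.19% (CEBPA in NMR30) of all regions in 3 hearts and no liver. Lack of liver H3K27ac and of the peaks of any single factor list was thus usual for the class. The share of regions without a peak of any factor list was not counted. The 8 came from the stricter set in all 3 hearts and no liver and were counted at all 3 heart lists. In that set the mean H3K27ac share of liver minus heart lists was -63.1 points, against -47.2 over all heart-only regions. The mean folds of the 8 ran from 7.45 to 9.64, below the 16.5 to 21.5 of the liver-only regions, as top-peak folds of heart lists were in general.

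Among regions present in all 8 lists, JH169319.1:1019561-1022896 (3336 bases) showed the widest gap towards liver. Its fold was 13.6, 13.7, 12.3, 14.3 and 20.0 in the 5 livers (14.8 ± 2.998, SD) and 3.895, 3.94 and 3.54 in the 3 hearts (3.79 ± 0.221, SD). Its mean rank percentile was 90.1 in liver and 7.03 in heart, and no liver rank fell as low as any heart rank (normal score difference 2.90 ± 0.465, SE; limma adjusted p = 0.00146). It had H3K27ac in 5 livers and no heart, and peaks of CEBPA and RXRA. JH170564.1:1296511-1299914 also ranked higher in liver (mean fold 16.1 ± 5.45 against 4.00 ± 0.518, SD; limma adjusted p = 0.00229) although H3K27ac was present in all lists and H3K4me3 in 5 livers and 3 hearts, and all 8 factor lists had a peak there. Of these 8 regions, 7 had H3K27ac in all 5 livers and 2 in all 3 hearts. Among all 206 regions ranked higher in liver the shares were 89.3% and 58.7%.

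Towards heart, JH168688.1:159484-163347 (3864 bases) had folds of 5.25, 4.61, 3.22, 5.43 and 4.99 in liver (4.70 ± 0.883, SD, n = 5) and 10.2, 8.04 and 10.2 in heart (9.46 ± 1.23, SD, n = 3). The mean rank percentile was 9.23 in liver and 96.6 in heart (normal score difference -3.49 ± 0.483, SE; limma adjusted p = 0.000847). H3K27ac was in 2 liver and 3 heart lists. JH167826.1:147960-152072 behaved alike (4.35 ± 0.447 against 9.31 ± 2.24, SD; limma adjusted p = 0.000847). Here the fold itself was higher in heart, against the general direction of the lists. All 8 of the regions ranked higher in heart had H3K27ac in all 3 hearts, 2 had it in all 5 livers and 4 held no factor peak. Among all 349 such regions, 92.3% had H3K27ac in all 3 hearts, 45.3% had it in all 5 livers and 56.7% held a factor peak.

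The regions highest in both tissues were long. The 8 spanned 10530 to 30697 bases, all had H3K27ac in all 8 H3K27ac lists, and all had H3K4me3 in at least 3 livers and 5 of them in at least 3 hearts. JH170294.1:56454-76926 had a fold of 18.9 ± 1.31 (SD, n = 5) in liver and 9.55 ± 1.41 (SD, n = 3) in heart, with mean ranks of 98.1 and 97.3. JH166929.1:413190-441401 was the highest in heart at 11.5 ± 1.23 (SD, n = 3), against 20.3 ± 6.06 (SD, n = 5) in liver. A long region merges many peaks and its value is the highest of them, so a high rank is in part built in. It is also more easily overlapped by 1 base of another mark. Over all 8051 regions (median width 3068 bases), H3K27ac was in all 5 liver lists at 66.2% and in all 3 heart lists at 75.4%. H3K4me3 was in at least 3 liver lists at 40.6% and in at least 3 heart lists at 34.7%.

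Named regions of different kinds shared a scaffold in some cases. On JH172084.1 a region high in both tissues (886701 to 897230) was followed by one ranked higher in liver (902763 to 905889; fold 17.7 ± 4.96 against 4.41 ± 0.597, SD). On JH171133.1 a liver-only region (979113 to 980856) lay between 2 regions ranked higher in heart (752336 to 757148 and 1110567 to 1113383). That scaffold held 190 liver-only and 100 heart-only regions (34.5% heart-only), and the nearness of the named ones was not tested.

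The Damaraland mole-rat (Fukomys damarensis), another subterranean African mole-rat, had 5 liver and 5 heart H3K4me1 lists on its own assembly, from wild-type adults with estimated ages of 36 or 48 months, all male but for 1 liver from DMR6, a female. These animals were older than the naked mole-rats, so species and age cannot be told apart. Both tissues came from 4 of the Damaraland animals and 3 of the naked mole-rats, which the permutation test does not take into account. The heart DMR1 list has a tag, unexplained by the labels, that may mean a fixed read number. Top-peak fold differed between liver and heart by a log2 of 0.77 in the naked and 0.52 in the Damaraland mole-rat, and the difference of these did not pass the test after adjustment over 3 measures (0.25, exact permutation p = 0.0281, adjusted 0.0842). The top-peak width difference was 0.85 and 0.89 (difference -0.04, exact permutation p = 0.913). For the median width of all peaks it was 0.07 and 0.34 (difference -0.27, exact permutation, adjusted p = 0.169).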

How the data were processed

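Peak lists were deposited per library, made against an input library, per the file names. Aligner, settings and depth were not given in the sources used here, and MACS2 is named in the submitters' processing notes without version. The deposited fold is a linear ratio over background from the authors' peak caller. That program also gave the −log10 p-value and the −log10 q-value deposited for each peak. Members, lists and rules were chosen with earlier results of these data known.

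Peaks were merged into regions across the 8 lists, an overlap being at least 1 base. Peaks were ordered by −log10 p-value for equal numbers. List measures, shares and overlaps were compared by exact permutation, 2-sided unless stated, adjusted by Benjamini-Hochberg at 0.05. Libraries are different animals within a tissue. Liver and heart of NMR30, NMR31 and NMR32 are paired by the animal in the labels, and the fit without that block was the main one, since 3 pairs allow no exact p below 0.25. Fold ranks of 8051 regions were compared with limma 3.58.1, tested first on simulated data. Python 3.11.15, NumPy 2.4.6, pandas 2.3.3, SciPy 1.17.1, Matplotlib 3.10.9 and R 4.3.3 were used.

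Named regions were 8 per kind: in all 5 livers and no heart, or all 3 hearts and no liver, by mean fold rank within the lists; in all 8 lists and past the limma threshold without overlap, by rank difference; and in all 8 lists, highest in both tissues. Positions count from 1. Alternatives were a −log10 q-value of at least 4, other numbers and orders of peaks, an overlap of 50% of the shorter, other region rules, the animal block, the library code and each library left out. Sequences and gene annotation of HetGla_1.0 were not used here.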

Additional observations from a re-analysis of the deposited data

Results flagged for a closer look

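In 18 groups of 4 or 5 libraries, 4 values lay far from the others of their group, where chance flags about 1 in 20 groups. The median H3K4me1 peak width of liver NMR32 was 552 bases, against 402 to 443 in the other livers. In liver NMR30, 32.9% of H3K4me1 peaks had the shortest width of the list. The H3K4me3 list of liver NMR30 marked 12.5% of heart-only and 18.8% of liver-only H3K4me1 regions, more than any other liver list, and it was also the longest.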

How the results depend on the processing

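Of 209 alternatives over the 18 tested results, 153 kept direction and side of the threshold, and of 24 over the 2 counts of regions, 16 stayed within 1.5 times. At a −log10 q-value of at least 4 the median fold difference was 0.12 (adjusted exact p = 0.214, call lost). With the replicate block over NMR30, NMR31 and NMR32, log2 differences were 1.076 (number), 1.35 (bases), 0.19 (fold), 0.82 (top-peak width) and 0.73 (top-peak fold), each adjusted exact p = 0.3. Separation under the block was 0.222 (exact p = 0.125). H3K27ac shares, paired over NMR31, NMR32 and NMR35, differed by 29.6 (liver-only) and -46.2 points (heart-only). H3K4me3 shares, paired over NMR31, NMR32, NMR34 and NMR35, differed by 4.09 (liver-only) and -1.24 points (heart-only, with NMR32 at 0.13 and the other 3 below 0). All 4 had an adjusted exact p of 0.3, and unadjusted values of 0.25, 0.25, 0.125 and 0.25, where 3 pairs allow no p below 0.25 and 4 pairs none below 0.125. The block gave 46 and 104 regions ranked higher in liver and heart, and mean fold 78 and 149. The cause was not tested. With equal numbers of peaks, H3K27ac at two-tissue regions differed by -8.23, H3K4me3 at liver-only by 2.34 and at heart-only regions by -0.84 points. Their adjusted exact permutation p-values were 0.0268, 0.2 and 0.0268. H3K4me3 at heart-only regions thus turned from 1.04 points to a call towards heart.

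Leaving out each library gave log2 differences of 0.85 to 1.54 (number), 0.98 to 1.86 (bases), 0.14 to 0.22 (fold), -0.0060 to 0.12 (width), 0.62 to 1.09 (top-peak width) and 0.74 to 0.82 (top-peak fold). Counts were 111 (without liver NMR34) to 174 higher in liver, 120 without liver NMR31, and 229 (without liver NMR31) to 310 higher in heart, 230 without heart NMR31. H3K27ac differed by 25.9 to 28.3 points at liver-only, -47.8 to -46.6 at heart-only and -9.68 (without liver NMR35) to -6.27 at two-tissue regions. H3K4me3 differed by 4.09 to 6.17 points at liver-only and -1.24 to 1.704 at heart-only regions. Damaraland comparisons gave 0.22 to 0.29 for top-peak fold, the highest without liver NMR31 (adjusted exact p = 0.0289), and -0.27 to 0.20 for top-peak width, 0.01 without liver NMR30 and 0.20 without heart NMR30. Read depth is unknown, and its part in the number of shared regions was not tested.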
